A study of Homo sapiens with 4 samples.

Results

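The 10q24 psychiatric risk locus around AS3MT was examined through 8 protein-coding genes, AS3MT, CNNM2, NT5C2, WBP1L, SFXN2, ARL3, TRIM8 and PCGF6. They were taken from the deposited count table by symbol, and all 8 were present among its 24014 genes. The locus was chosen by the difference of AS3MT between the groups in these same counts, and the other 7 genes by their position beside it. RNA had been sequenced from SK-N-SH, an established human neuroblastoma line. Cells for 2 libraries had received a lentivirus with no insert (empty vector, control), although their titles and genotype call them WT or wild type, and cells for the other 2 a lentivirus expressing the long non-coding RNA AC109347.1, here AP1AR-DT (AP1AR-DT_OE). For AP1AR-DT_OE 2, genotype and treatment are labelled AC109347.2, and its title was followed. The comparison asked how the genes of the locus differed when AP1AR-DT was raised in a neuronal-type line. All 4 libraries thus came from 1 tumour line, transduced with a different lentivirus in each group. No label says that the libraries of a group were separate cultures, so p-values measure only the spread between these libraries, which may be technical. Whether a difference between the groups came from the transductions rather than from AP1AR-DT was not tested.

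The locus is a stretch of the long arm of chromosome 10 in which common variants are associated with schizophrenia and with bipolar disorder, and the gene or genes behind that association are still debated. AS3MT, arsenite methyltransferase, uses S-adenosylmethionine to methylate inorganic arsenic, and a shorter AS3MT isoform has been linked to risk alleles in human brain. CNNM2 takes part in magnesium handling, and NT5C2 is a cytosolic nucleotidase that acts on purine nucleotides such as IMP. The locus is also known for readthrough transcription, in which a transcript begun in BORCS7 runs on into the exons of AS3MT.

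The libraries held between 21988065 and 26184599 counts. AP1AR-DT, listed as RP11-73K9.2, had 3 counts in control 1, 18 in control 2, 680 in AP1AR-DT_OE 1 and 1065 in AP1AR-DT_OE 2, so the labels were borne out. Of the 13 adrenergic (neuroblast) markers looked for, 11 lay above the floor of 12 counts in every library, as did all 9 mesenchymal markers. Both kinds of cell are known in this line, and in RNA from whole cultures fewer cells of a kind and less RNA per cell cannot be told apart. Libraries with the same replicate number resembled each other. Over 13220 genes counted in every library, with a mean of 50 or more normalized reads, the log2 ratio of library 2 to library 1 went down with GC content in the controls (Spearman rho = -0.77) and in AP1AR-DT_OE (rho = -0.65). The members are therefore given within each replicate number as well as between groups.

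The sequence that tells AS3MT from its readthrough gene is short. AS3MT (chr10:102869470-102901899 in GRCh38, + strand) starts 4508 bases beyond the end of BORCS7 (listed as C10orf32, chr10:102854259-102864961, + strand), which encodes a subunit of the BORC complex that positions lysosomes. The readthrough gene BORCS7-ASMT (listed as C10orf32-ASMT, chr10:102854272-102901899, + strand) covers both. In GENCODE v44, the merged exons of AS3MT hold 2450 bases, of which 2326 (94.9%) belong also to BORCS7-ASMT and 124 are its own. BORCS7-ASMT has 2670 merged exon bases and 0 of its own, since 2326 are shared with AS3MT and the other 344 with BORCS7. BORCS7 keeps 2328 of its 2672 exon bases to itself, and shares 0 with AS3MT. A fragment from the AS3MT exons can therefore be placed under 1 gene and not the other only if it reaches beyond the shared exons. That takes a read over a junction, or a read of the pair in the first exon of AS3MT or in BORCS7. The junctions are shown because they are where the transcripts of these genes part. Each line gives the last 15 bases of the upstream exon and the first 15 of the next, 5′ to 3′, from the GENCODE v44 transcripts, and capitals mark the first 15 bases of the second exon of AS3MT.
AS3MT: caggccgaggagacaTGGCTGCACTTCGTG
BORCS7-ASMT: gaaatagaatgacatTGGCTGCACTTCGTG
BORCS7: gaaatagaatgacattaactcagaggagat
AS3MT and the readthrough gene share the right side of the junction, whereas BORCS7 and the readthrough gene share the left. The table holds 1 count per gene and library and no junction counts, so reads over these junctions were not analysed here.

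AS3MT had 0 counts in control 1, 507 in control 2, 0 in AP1AR-DT_OE 1 and 0 in AP1AR-DT_OE 2. Control 2 alone was high, and control 1 stood at 0 with both AP1AR-DT_OE libraries, so the groups overlapped. To allow for depth, each count was divided by the library's DESeq2 size factor (normalized read count). On that scale AS3MT was 391 in control 2, at least 32.8-fold higher than in AP1AR-DT_OE 2 and at least 28.6-fold higher than in control 1, with a library at 0 taken at the floor of 3 read pairs, or 12 counts. The control mean was 196 ± 277 (SD, n = 2) against 0 in AP1AR-DT_OE. The Log2FC fitted by DESeq2 was -23.40 with an SE of 4.79, a value set by the zeros and no measure of size. AS3MT was among the 33 genes called at an adjusted p under 0.05 (DESeq2 Wald test), which made up 0.137% of all genes tested, 0.0541% being called lower. The locus was chosen around it for that reason, so its difference is given as a description. The call was lost without either AP1AR-DT_OE library, and without control 2 no count of AS3MT remains. It was also lost under the DESeq2 likelihood-ratio test and with counts divided by 4. With other size factors (TMM) and with a GC correction it was kept. The edgeR quasi-likelihood test, whose filter removes AS3MT, called 0 genes (112 at an unadjusted p under 0.05).

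BORCS7-ASMT showed the reverse of AS3MT. It had 115 counts in control 1, 0 in control 2, 121 in AP1AR-DT_OE 1 and 415 in AP1AR-DT_OE 2. In every library 1 of these genes had counts and the other had none, and control 2 was the library in which they changed places. In AP1AR-DT_OE 2 the normalized read count of BORCS7-ASMT was at least 44.5-fold higher than in control 2, and in control 1 it was at least 14.1-fold higher than in control 2. The fitted Log2FC was 2.06 with an SE of 3.14.

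Added together, AS3MT and BORCS7-ASMT had 115 counts in control 1, 507 in control 2, 121 in AP1AR-DT_OE 1 and 415 in AP1AR-DT_OE 2. The number 2 libraries were high and the number 1 libraries low, in both groups alike. The normalized sums came to 131 in control 1, 391 in control 2, 133 in AP1AR-DT_OE 1 and 412 in AP1AR-DT_OE 2, with means of 261 ± 184 and 272 ± 197 (SD, n = 2 each). The log2 ratio of AP1AR-DT_OE to control was 0.02 within number 1 and 0.07 within number 2, and the fitted Log2FC of the sum was 0.06 with an SE of 0.69 (adjusted p = 1, DESeq2). The 95% interval of that Log2FC ran from -1.29 to 1.41, so a change within that range in either direction remains possible. The interval gives no limit of detection, and a larger change could also have missed a call. The sum of these 2 genes was chosen after their values were seen.

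BORCS7 itself had 97 counts in control 1, 773 in control 2, 178 in AP1AR-DT_OE 1 and 424 in AP1AR-DT_OE 2. Its log2 ratio of AP1AR-DT_OE to control was 0.82 in number 1 and -0.50 in number 2, opposite in sign, and its Log2FC was -0.20 with an SE of 0.71. Summed over all 3 genes, the normalized read count averaged 614 ± 527 in control against 580.4 ± 357 in AP1AR-DT_OE (SD, n = 2 each). The Log2FC of that sum was -0.08 with an SE of 0.66 and a 95% interval from -1.38 to 1.22 (adjusted p = 1, DESeq2). The sign of this value rested on single libraries, since it was 1.27 without control 2 and -0.92 without AP1AR-DT_OE 2. Counts summed over genes that share exons thus gave no difference beyond the spread, where AS3MT by itself was called.

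**Figure D1:**
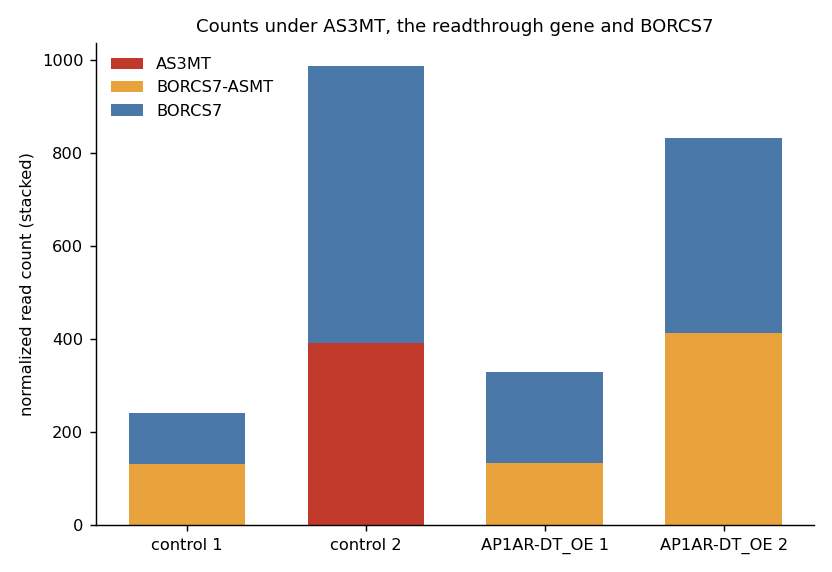
Normalized read counts (vertical axis, stacked) under AS3MT, the readthrough gene BORCS7-ASMT and BORCS7 in each of the 4 libraries (horizontal axis). AS3MT appears in control 2 alone, at 391, where BORCS7-ASMT is 0, and the height of AS3MT plus BORCS7-ASMT is 131 and 133 in the number 1 libraries and 391 and 412 in the number 2 libraries.

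Genes with the pattern of AS3MT were looked for across the table. The pattern was the log2(normalized read count + 1) of each library, centred on the mean of the gene, and likeness was the Euclidean distance over the 4 libraries. The nearest were CTD-2323K18.1 (distance 0.24), a gene listed as POLR2J4 (0.45) and the pseudogene IMPDH1P10 (0.83). Each was counted in control 2 alone, with 417, 352 and 260 counts. METTL16 (1.9996) and STARD4-AS1 (3.97) followed, with counts in every library. METTL16, which encodes an RNA methyltransferase, had 8, 1057, 9 and 9 counts in control 1, control 2, AP1AR-DT_OE 1 and AP1AR-DT_OE 2. In the whole table, 17 genes (0.0708%) had at least 100 counts in 1 library and 0 in the other 3. These were spread over the libraries, 3 in control 1, 5 in control 2, 5 in AP1AR-DT_OE 1 and 4 in AP1AR-DT_OE 2. AS3MT was 1 of them, and 13 of the 17 (76.5%) shared exon sequence with another table gene on the same strand, against 9.04% of all genes. Of the 33 called genes, 7 were counted in 1 library alone, AS3MT included, and all 7 shared exons. Sharing exons was common among called genes in general, at 19 of the 33.

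None of the other 7 members was called (adjusted p = 1 for each, DESeq2), and 1 of them, NT5C2, had an unadjusted p under 0.05. Their median Log2FC was 0.00, and 4 of the 7 lay above 0. The median was -0.03 over all genes tested and -0.02 over those averaging 50 or more normalized reads, as all members did. Several of them differed more between replicate numbers than between groups. Among the 8 members, the groups did not overlap for 2, CNNM2 and SFXN2, beside 9.45% of the 13298 genes averaging 50 or more normalized reads.

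CNNM2 and NT5C2 are neighbours that run towards each other. CNNM2 (chr10:102918294-103090222, + strand) and NT5C2 (chr10:103087185-103277605, - strand) overlap by 3038 bases at their ends, and whether counting used strand was not given in the sources used here, so their counts are uncertain over that stretch.

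CNNM2 had 1007 counts in control 1, 1374 in control 2, 1127 in AP1AR-DT_OE 1 and 1419 in AP1AR-DT_OE 2. Normalized for depth, these became 1147 in control 1, 1059.9 in control 2, 1236 in AP1AR-DT_OE 1 and 1408 in AP1AR-DT_OE 2. Both AP1AR-DT_OE libraries lay above both controls, as they did for 5.11% of genes at that level. The means were 1103 ± 61.5 and 1322 ± 122 (SD, n = 2 each), and the log2 ratio was 0.11 within number 1 and 0.41 within number 2. The Log2FC of CNNM2 was 0.26 with an SE of 0.44, which did not pass the test.

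NT5C2 had 66 counts in control 1, 482 in control 2, 67 in AP1AR-DT_OE 1 and 90 in AP1AR-DT_OE 2. Control 2 was high, and the other control lay among the AP1AR-DT_OE libraries. Normalized, the controls were 75.2 and 372, and the AP1AR-DT_OE libraries 73.5 and 89.3, with means of 223 ± 209.8 and 81.4 ± 11.2 (SD, n = 2 each). The Log2FC was -1.46 with an SE of 0.74, the furthest from 0 of the 7 members, at an unadjusted p of 0.0478 (DESeq2), where 0.816% of all genes had an unadjusted p under 0.05 and 0.396% had one with a lower value in AP1AR-DT_OE. It rested on 1 library, for the Log2FC was 0.13 without control 2 and -2.19 without control 1, and the log2 ratio was -0.03 within number 1 and -2.06 within number 2. Control 2 exceeded control 1 by 2.31 on the log2 scale for NT5C2, and 1.51% of the 13220 genes showed a ratio as high. Among the interval genes counted in both controls, BORCS7 alone had a higher ratio, at 2.43. NT5C2 has a GC content of 40.5%, below that of every other member. With a GC correction its Log2FC was -1.12, at an unadjusted p of 0.0502 (DESeq2 Wald test). The unadjusted p of NT5C2 was 0.0519 under the DESeq2 likelihood-ratio test and 0.117 under the edgeR quasi-likelihood test. By the DESeq2 Wald test it was 0.0798 with counts divided by 4 and 0.0440 with TMM factors.

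Genes that overlap NT5C2 could share its reads if counting ignored strand. RPEL1 (listed as RP11-332O19.5), a ribulose-phosphate epimerase gene inside NT5C2 on the opposite strand, had 122 counts in control 1, 410 in control 2, 150 in AP1AR-DT_OE 1 and 256 in AP1AR-DT_OE 2, with a Log2FC of -0.12 and an SE of 0.60. INA, which encodes the neuronal intermediate filament protein internexin and overlaps the start of NT5C2 by 468 bases on the opposite strand, had 128, 311, 162 and 238 counts in the same order. Its Log2FC was 0.10 with an SE of 0.57. The number 2 library was the higher one in both groups for each of these genes. The pseudogenes MARCKSL1P1 and ST13P13, also inside NT5C2, did not exceed 3 counts in any library.

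SFXN2, ARL3 and WBP1L lie together on the other side of AS3MT. SFXN2 (chr10:102714538-102743492, + strand) encodes a sideroflexin, a transmembrane protein of mitochondria. It had 278 counts in control 1, 454 in control 2, 345 in AP1AR-DT_OE 1 and 353 in AP1AR-DT_OE 2, or 316.6, 350.2, 378 and 350.4 after normalization. The AP1AR-DT_OE libraries lay above the controls, but control 2 and AP1AR-DT_OE 2 were practically equal. The log2 ratio was 0.26 within number 1 and 0.00 within number 2, and the Log2FC was 0.13 with an SE of 0.49.

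ARL3 (chr10:102673731-102714397, - strand), whose start lies 140 bases from that of SFXN2, encodes a small GTPase that releases lipidated proteins into the cilium. It had 278 counts in control 1, 795 in control 2, 316 in AP1AR-DT_OE 1 and 586 in AP1AR-DT_OE 2. In both groups number 2 was the higher library, and the groups overlapped throughout. The normalized means were 465 ± 209.7 for control against 464 ± 166 for AP1AR-DT_OE (SD, n = 2 each), with a Log2FC of -0.00 and an SE of 0.54. Control 2 exceeded control 1 by 0.95 on the log2 scale for ARL3 and by 0.15 for its divergent neighbour SFXN2.

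WBP1L (chr10:102743948-102834516, + strand) encodes a transmembrane protein that recruits NEDD4-type ubiquitin ligases. It had 2478 counts in control 1, 3011 in control 2, 2781 in AP1AR-DT_OE 1 and 2337 in AP1AR-DT_OE 2. After normalization the number 1 libraries were the higher ones, at 2822 and 3050.5, and the number 2 libraries lay at 2323 and 2319.6. The groups overlapped, and the Log2FC was 0.06 with an SE of 0.44.

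TRIM8 and PCGF6 stand at the ends of the interval. TRIM8 (chr10:102644479-102658318, + strand) encodes a ubiquitin ligase known for acting on cytokine and NF-kB signalling. It had 10221 counts in control 1, 10426 in control 2, 10090 in AP1AR-DT_OE 1 and 8725 in AP1AR-DT_OE 2, the most of any member. Normalized, the controls were 11641 and 8042, and the AP1AR-DT_OE libraries 11068 and 8659.9, so number 1 was the higher library in both groups. The means of 9842 ± 2545 and 9864 ± 1703 (SD, n = 2 each) gave a Log2FC of 0.00 with an SE of 0.45.

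PCGF6 (chr10:103302796-103351144, - strand) encodes the PCGF subunit of a variant polycomb complex that represses germ-line genes. It had 41 counts in control 1, 203 in control 2, 35 in AP1AR-DT_OE 1 and 128 in AP1AR-DT_OE 2. Number 2 was high in both groups, and the groups overlapped. At about 4 counts per read pair, the lower values rest on few read pairs. The normalized means were 102 ± 77.7 and 82.7 ± 62.7 (SD, n = 2 each), and the log2 ratio was -0.28 within number 1 and -0.30 within number 2. The Log2FC of -0.30 (SE 0.82) was the only one of the 7 to lie as far below 0 in both numbers, and it was 0.84 without control 2 and -1.43 without AP1AR-DT_OE 2.

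**Figure D2:**
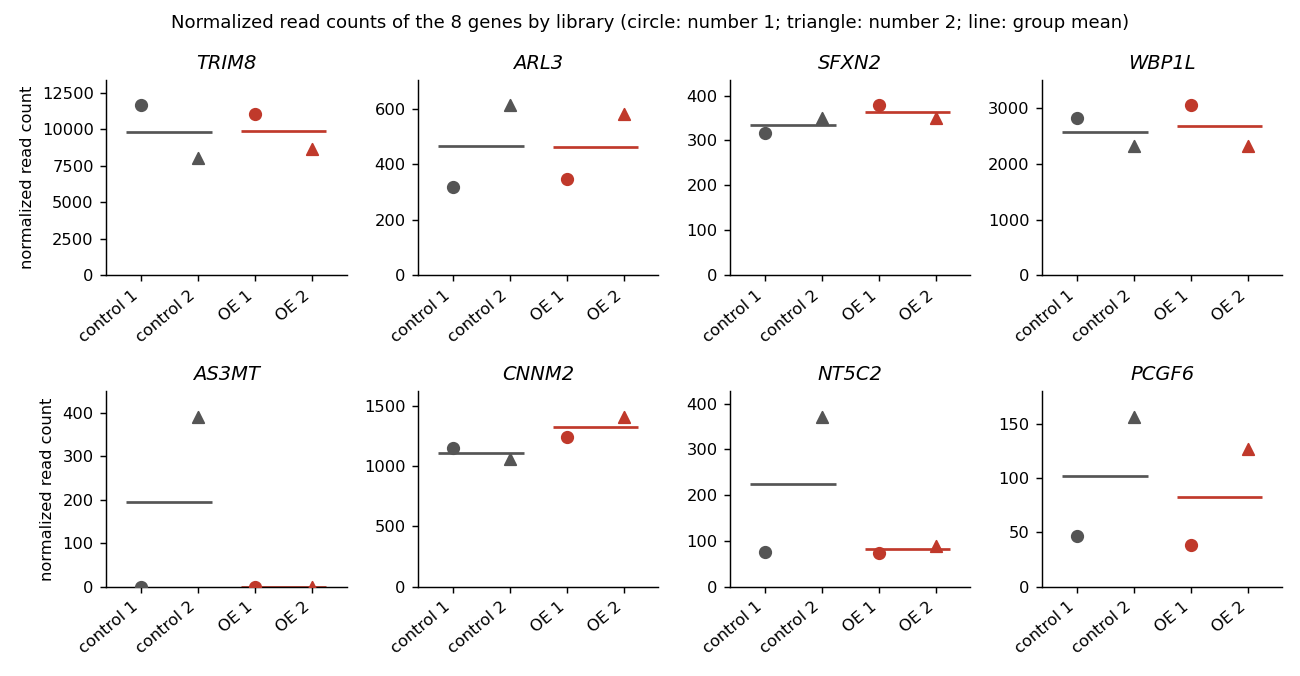
Normalized read counts (vertical axes, each starting at 0) of the 8 genes in control 1, control 2, AP1AR-DT_OE 1 and AP1AR-DT_OE 2 (OE on the horizontal axes), with circles for number 1, triangles for number 2 and a line at each group mean. AS3MT at 391 and NT5C2 at 372 are raised in control 2 alone, ARL3 and PCGF6 are higher in number 2 of both groups, and TRIM8 and WBP1L are higher in number 1 of both groups.

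**Figure D3:**
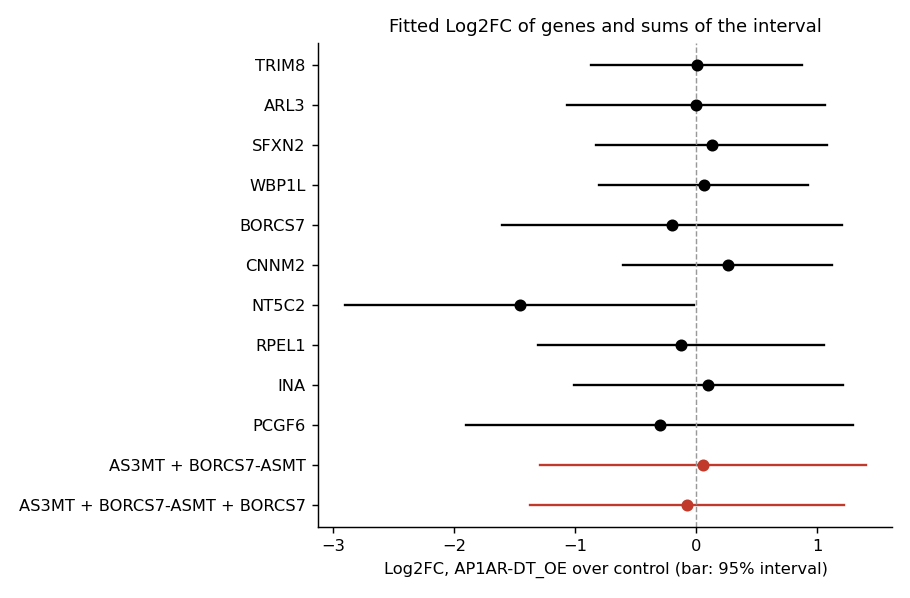
Log2FC of AP1AR-DT_OE over control (horizontal axis) from DESeq2, with 95% intervals as bars, for 7 members and 3 other genes of the interval (black) and for the counts summed at AS3MT (red). Every interval spans 0 except that of NT5C2, which ends at -0.01. AS3MT and BORCS7-ASMT alone are not drawn, because their fitted values depend on libraries at 0.

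The ratio between replicate numbers tended to fall with the GC content of the members, with exceptions. Library 2 over library 1 on the log2 scale was 0.95 for ARL3 and 1.75 for PCGF6 in the controls, with GC contents of 48.6% and 42.0%. For TRIM8, with a GC content of 63.7%, it was -0.53. The order was not strict. In the controls CNNM2 (47.5%) and SFXN2 (47.1%), both lower in GC than ARL3, had ratios of -0.11 and 0.15. In AP1AR-DT_OE, NT5C2, the lowest in GC, had 0.28 against 1.73 for PCGF6. Over the 7 members other than AS3MT, the Spearman correlation of GC content with this ratio was -0.89 in the controls and -0.64 in AP1AR-DT_OE, across genes that share the same libraries. The same direction was seen over all genes, as given for the libraries above. The part of GC content in any single value was not tested. Leaving out the libraries of 1 number was not possible with a test, since 1 library per group would remain, so the ratios within each number stand in its place.

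**Figure D4:**
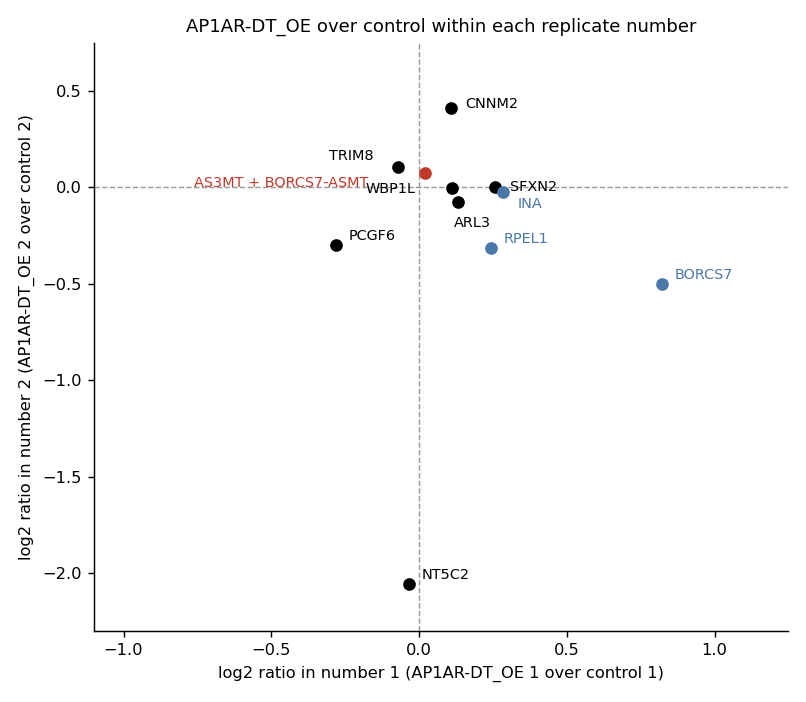
Log2 ratio of AP1AR-DT_OE to control within number 1 (horizontal axis) and within number 2 (vertical axis) for 7 members (black), other genes of the interval (blue) and the sum of AS3MT and BORCS7-ASMT (red). Most points lie near 0 on both axes, NT5C2 lies at -2.06 in number 2 alone, and BORCS7 lies at 0.82 and -0.50.

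The members differed widely in level. Per kilobase of merged exon, the mean normalized read count over the 4 libraries was 1410.2 ± 253 for TRIM8, 336 ± 46.9 for WBP1L, 121 ± 40.3 for ARL3, 74.3 ± 9.12 for CNNM2, 43.4 ± 3.15 for SFXN2, 39.9 ± 79.8 for AS3MT, 30.6 ± 19.5 for PCGF6 and 16.7 ± 16.0 for NT5C2 (SD, n = 4 each). The lowest library of TRIM8 lay above the highest of WBP1L, and the same held for WBP1L over ARL3 and for CNNM2 over SFXN2. The ranges of ARL3 and CNNM2 overlapped, as did those of each neighbouring pair from SFXN2 down to NT5C2. The place of AS3MT rests on control 2 alone.

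Genes that work with the members were followed in lists, and AS3MT was the 1 gene of the lists called. At an unadjusted p under 0.05 (DESeq2) the lists held NT5C2 and TFDP1 besides. Of the 15 genes of arsenic handling in the table, 12 averaged 50 or more normalized reads, and their median Log2FC was 0.08, beside -0.02 for all genes at that level. Of these 12, 7 lay above 0 and 5 below. The median and the split include AS3MT, 1 of the 5, which reached that mean through control 2 alone. TXN (thioredoxin) was at the upper end, with 75 counts in control 1, 294 in control 2, 98 in AP1AR-DT_OE 1 and 258 in AP1AR-DT_OE 2 and a Log2FC of 0.22 (SE 0.68). Without AS3MT, no gene that handles arsenic passed the test. Of the 10 genes of the BORC complex, with its partners, none passed it, and the values ran from -0.20 for BORCS7 to 0.14 for BORCS6 (listed as C17orf59).

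For the partners of CNNM2, 12 of 14 genes of magnesium transport had a mean of at least 50, and their median Log2FC was -0.05, with SLC41A2 lowest at -0.47 (SE 0.81) and CNNM2 highest. Of 9 genes of the nucleotidase family at that level, NT5C2 alone had an unadjusted p under 0.05, and NT5DC3 was highest at 0.22 (SE 0.47). The 5 sideroflexins ran from -0.14 for SFXN1 to 0.29 for SFXN4, with a median of -0.06. The median of the 9 nucleotidase genes was -0.02.

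Among 11 genes of the ARL3 cilium pathway the median was -0.08, and ARL2, a related small GTPase, was highest at 0.13. Of 9 genes around WBP1L the lowest was the ligase NEDD4 at -0.43 (SE 0.74) and the highest WWP2 at 0.15. Of 11 genes around TRIM8, SOCS1, an inhibitor of JAK kinases that TRIM8 is known to bind, was highest at 0.42 (SE 0.52). Its log2 ratio was 0.42 within number 1 and 0.41 within number 2. The groups overlapped, with control 1 at 264 normalized reads and AP1AR-DT_OE 2 at 262. MDM2 was lowest at -0.21. None of these passed the test.

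The 15 polycomb genes around PCGF6 had a median Log2FC of -0.12, beside -0.02 for all genes averaging 50 or more normalized reads. Of these 15, 11 lay below 0, with PCGF3 lowest at -0.44 (SE 0.48). Such a lean was not particular to them, since 9 of 11 genes around TRIM8 and 8 of 11 of the ARL3 pathway lay below 0. Around WBP1L, 3 of 9 did. TFDP1, the dimerization partner of E2F6, had 381 counts in control 1, 604 in control 2, 454 in AP1AR-DT_OE 1 and 2189 in AP1AR-DT_OE 2. AP1AR-DT_OE 2 alone was high. The Log2FC of TFDP1 was 1.57 with an SE of 0.62 and an unadjusted p of 0.0113 (DESeq2), the log2 ratio was 0.20 within number 1 and 2.22 within number 2, and it was not called after adjustment.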

How the data were processed

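RNA-seq of 4 SK-N-SH libraries, 2 per group by their titles, was analysed from the deposited table of counts. Per the paper's methods, the authors aligned reads with HISAT2 to hg19 and counted genes with StringTie and its script, whereas the submitters' processing notes name TopHat2 2.0.4, HTSeq, Cuffdiff and edgeR 2.6.12. Annotation and strand are not given in the sources used here. The deposited counts are whole, not normalized, and pile up at 4 (3287 entries, against 2136 at 3 and 1509 at 5), so about 4 counts stand for 1 read pair. The floor for a 0 was 3 pairs, or 12 counts per library, and covers counting error only. The table's columns of fold changes and p-values from the authors' own tests were not used. Its coordinates are GRCh38 positions.

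DESeq2 1.42.0 (R 4.3.3) was fitted to all 24014 genes with median-of-ratios size factors and no covariate. Two-sided Wald p-values were adjusted over all genes (Benjamini-Hochberg), with calls at an adjusted p under 0.05. The steps were tried on simulated counts, drawn independently for each gene and library. These held no GC trend and no reads shared between genes. Exon overlap, length and GC content came from GENCODE v44 mapped to GRCh37, for 23954 genes. Genes named were the members, interval genes that overlap a member or average 50 or more normalized reads, the extremes of each list and those with an unadjusted p under 0.05, and the 5 genes nearest to AS3MT in pattern. One gene that this rule names is not reported here. The members and lists were chosen with earlier results of these data known. Alternatives were edgeR 4.0.16, other normalizations and filters, a replicate block, a GC correction (lowess, span 0.3), counts divided by 4, summed overlapping genes and leaving out each library.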

Additional observations from a re-analysis of the deposited data

How the results depend on the processing

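The number of genes called (33) fell to 0 under edgeR's quasi-likelihood test (112 before adjustment) and 15 for counts divided by 4, and was 14 with overlapping genes summed, 55 with a GC correction, 60 with that correction and the block, and 45 to 90 leaving out a library. In leave-one-out fits the lone library of a group is assumed to vary like the other group. Of the interval genes, 1 was called, AS3MT, and the count was 0 with either edgeR test, the filter of 10 counts in 2 libraries, the likelihood-ratio test, the block with or without GC correction, counts divided by 4 and summing, and 0 to 2 leaving out a library, where BORCS7-ASMT was the other gene called without control 1. The filter and both edgeR tests remove AS3MT, and without control 2 it has no counts. AS3MT was no longer called at a Log2FC of -23.40 (likelihood-ratio test), -7.99 (counts divided by 4), -5.88 (block), -5.86 (block with GC correction) or -0.078 (summed), and ran from -22.53 to -10.99 leaving out a library, with the call lost without either AP1AR-DT_OE library. The cause was not tested.

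The sum over AS3MT, BORCS7-ASMT and BORCS7 (-0.078) changed sign to 0.095 with the GC correction and 0.059 without BORCS7, and ran from -0.92 to 1.27 leaving out a library. Values near 0 also changed sign for TRIM8 (-0.0043 with TMM factors, -0.051 with the GC correction, -0.046 with the block too) and ARL3 (0.0013 with the filter). Of 77 alternatives for the 7 other members, 70 kept direction and 7 changed it, and none led to a call. Leaving out a library, the Log2FC ranged from 0.15 to 0.35 for CNNM2, -2.19 to 0.13 for NT5C2, -0.15 to 0.23 for WBP1L, 0.06 to 0.21 for SFXN2, -0.44 to 0.56 for ARL3, -0.23 to 0.29 for TRIM8 and -1.43 to 0.84 for PCGF6. With the longest transcript as length, AS3MT ranked 7 and PCGF6 6. Without control 2, both AP1AR-DT_OE libraries lay on 1 side of control 1 for 4 members, as for 72.3% of genes. This count and the sum without BORCS7 were chosen after seeing the data.

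The labels share replicate numbers but call them neither a batch nor a pairing. The deviations of same-numbered libraries correlated at r = 0.412 over 16730 genes. With the replicate number as a block, 37 genes were called (44 with edgeR), and ARL3 was 0.025 (0.018 with edgeR, 0.014 with GC correction). The sum at AS3MT was then 0.089 with an SE of 0.31 (0.080 with edgeR). With the GC correction as well, it was 0.15 with an SE of 0.27. These SEs rest on 2 libraries per group. With the block, NT5C2 had an unadjusted p of 0.0687 (DESeq2 Wald test) or 0.0289 (edgeR quasi-likelihood test).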
